A study of Mus musculus with 3 samples.

Results

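All 4648 nuclei of the p300-ablated library were compared with all 4884 nuclei of the control library, of 12549 nuclei in the 3 libraries of the series. For each gene, the unique molecular identifiers (UMIs, each standing for 1 captured RNA molecule) were summed over the nuclei of a library and divided by the library's total to give CPM, the counts per 1000000 UMIs. The level in the p300-ablated library was set against control as a log2 ratio, in which 1 is 2 times higher and −1 is 2 times lower. Of 30559 features in the files, the 12247 with 100 or more UMIs in both libraries together were compared, and 1 of these is the transcript of the control virus. The comparison was repeated without nuclei that held at least 3 UMIs of Slc7a11, Slc6a11 and Atp13a4 together and at least 5 UMIs of Gpc5, called here the astrocyte rule, which left 11985 features. The question was which genes differ in level when p300 is removed from differentiating neural cultures, with and without astrocyte-rule nuclei in the sum.

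The cultures were neurospheres, floating aggregates of neural stem cells from the subventricular zone of newborn C57BL/6 mice, which were differentiated and taken at day 15 in vitro as pools of about 15 cultures. The p300-ablated cultures carried loxP-flanked Ep300 alleles (p300f/f) and received LV-CRE-mCherry, a lentivirus that expresses Cre recombinase. Control cultures received LV-RFP, which expresses a fluorescent protein without Cre, and since their label reads only control, the mouse line behind them is not stated. CBP-ablated cultures carried loxP-flanked Crebbp alleles (CBPf/f) and received the Cre virus. Their values are set beside the others, and both ablated libraries are measured against the same control library. Tamoxifen is the treatment in the labels of all 3 libraries, but by the methods Cre was brought in by lentivirus. Cre acts only in infected cells, and nuclei were sorted before loading. Each library is 1 pool, so that differences between pools, between viruses and between genotypes cannot be told apart. Nor can a difference in mouse line, since that of control is not stated.

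p300 and its paralogue CBP are lysine acetyltransferases that transcription factors recruit to enhancers and promoters. There they acetylate histone tails and link the factors to the transcription machinery, and CREB, AP-1, STAT and SMAD proteins are among the factors known to bind them. Signal-induced genes and genes of glial differentiation are therefore known to depend on these proteins. In cultures from the subventricular zone, stem cells give rise to astrocytes, cells of the oligodendrocyte lineage and neurons.

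The control library held 16312170 UMIs and the p300-ablated library 18876682, with medians of 3219 and 3902.5 UMIs a nucleus. Malat1, a noncoding RNA kept in the nucleus, took 11.6% of UMIs in the control library and 9.16% in the p300-ablated library, and mitochondrial transcripts took 0.0109% and 0.0069%. The libraries shared 7 nucleus barcodes. The viral transcripts went with the labels: the control virus had 108 UMIs in the control library and 0 in the p300-ablated library, and the 2 features of the Cre virus had 0 UMIs in control and 9 and 7 in the p300-ablated library. With 1 library per condition no test was possible. Ranges in parentheses are 95% intervals that cover counting error only, and "past 2 times" means a log2 ratio of at least 1 or at most −1.

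Most genes had nearly the same level in both libraries. The median log2 ratio was −0.03, and 57.2% of genes lay within 0.25 of 0 and 97.2% within 1. There were 85 genes 2 times higher (0.694%) and 260 genes 2 times lower (2.12%) in the p300-ablated library, together 2.82%. Over the same genes the CBP-ablated library had 2.6% higher and 4.31% lower against the same control. The widest differences were on the lower side, where 34 genes had ratios at or under −2 and 11 at or under −3, against 2 genes at or over 2. The transcript of the control virus, which only control cultures received, is counted in the 260, the 34 and the 11. It is also counted among the lower genes of the CBP-ablated library. Genes with few UMIs passed the limit more often: of the 3097 genes with under 300 UMIs 46 were higher and 127 lower, and of the 545 genes with 10000 UMIs or more 1 was higher and 4 were lower.

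**Figure D1:**
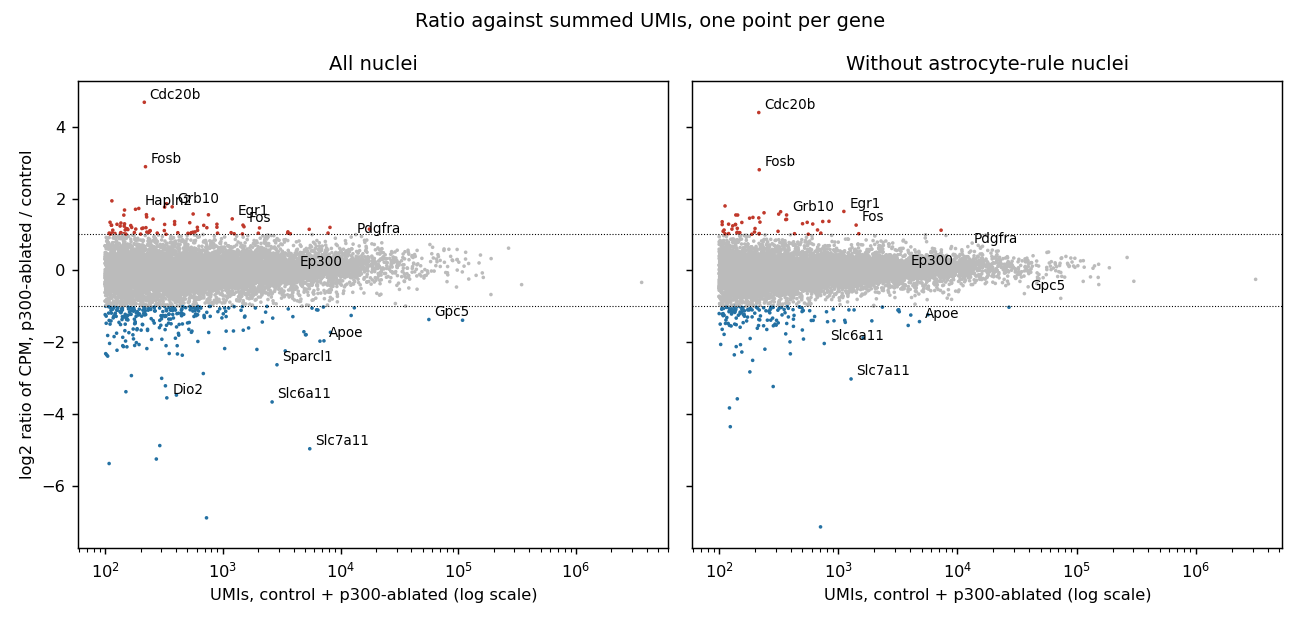
Log2 ratio of CPM, p300-ablated over control (vertical), against the UMIs of both libraries together (horizontal, log scale), 1 point a gene, over all nuclei (left) and without astrocyte-rule nuclei (right). Dotted lines mark 2 times, with red points above and blue points below, and Slc7a11 lies at −4.97 and −3.02 in the 2 panels while Cdc20b is highest, at 4.68 over all nuclei.

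The transcript of the deleted gene showed no lower level in these sums. Ep300 (ENSMUSG00000055024, chromosome 15 from 81585351 to 81652077, plus strand) had 1856 UMIs in the control library and 2177 in the p300-ablated library, or 114 and 115 CPM, a ratio of 0.02 (−0.07 to 0.11). UMIs were counted over exons and introns of the whole gene, so they do not separate the deleted part from the rest. By the paper the loxP sites of Ep300 surround exon 9. It cites earlier work for the loss of mature mRNA and protein after recombination, which these sums do not measure. The paper also reports that removal of both proteins was verified in its differentiating cultures. The figure it points to has a legend that describes CBP staining only. Crebbp, the gene of CBP, had 335 and 365 CPM, a ratio of 0.12 (0.07 to 0.18). Of 10 lysine acetyltransferase genes 0 were higher and 0 lower, with ratios from −0.34 for Kat2a to 0.17 for Kat2b. The enzymes that remove acetyl groups and the CREB factors with their coactivators were also inside the limit, from −0.25 for Hdac3 to 0.52 for Hdac6 over 11 deacetylases, and from −0.19 for Crem to 0.57 for Creb5 over 9 CREB genes. Over all genes 0.694% were 2 times higher and 2.12% lower, so these lists with none past the limit lie near those shares.

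Most of the 260 lower genes were also lower in the CBP-ablated library, against the same control: 164 were 2 times lower there and 3 were 2 times higher. Over all genes these shares were 4.31% and 2.6%. The 164 include the transcript of the control virus, and both ablated libraries received the Cre virus. Of the 85 higher genes 28 were also 2 times higher in the CBP-ablated library. Of the named genes described here, 4 were 2 times lower in the p300-ablated library while the CBP-ablated library lay above control. Ccdc175, which encodes a coiled-coil protein, had 135, 15 and 294 UMIs in the control, p300-ablated and CBP-ablated libraries, with ratios of −3.38 (−4.26 to −2.61) and 1.48. Gm3417, a predicted gene, had 264, 38 and 347 UMIs, with ratios of −3.01 (−3.54 to −2.51) and 0.75. Col9a1, a chain of collagen IX, had 19.4, 5.56 and 29.7 CPM, with ratios of −1.80 (−2.14 to −1.48) and 0.61. All 3 were past 2 times in each class that could be measured, 3 classes for Ccdc175, 4 for Gm3417 and 3 for Col9a1. The antisense transcript 9630013A20Rik had 2669, 1264 and 5606 UMIs, with ratios of −1.29 (−1.39 to −1.19) and 1.43, and was lower in 8 of 12 classes. Whether counting kept reads of this transcript apart from those of a gene on the opposite strand is not given in the sources used here. The ratios without astrocyte-rule nuclei were −3.58, −3.24, −1.99 and −1.53 in the same order.

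**Figure D2:**
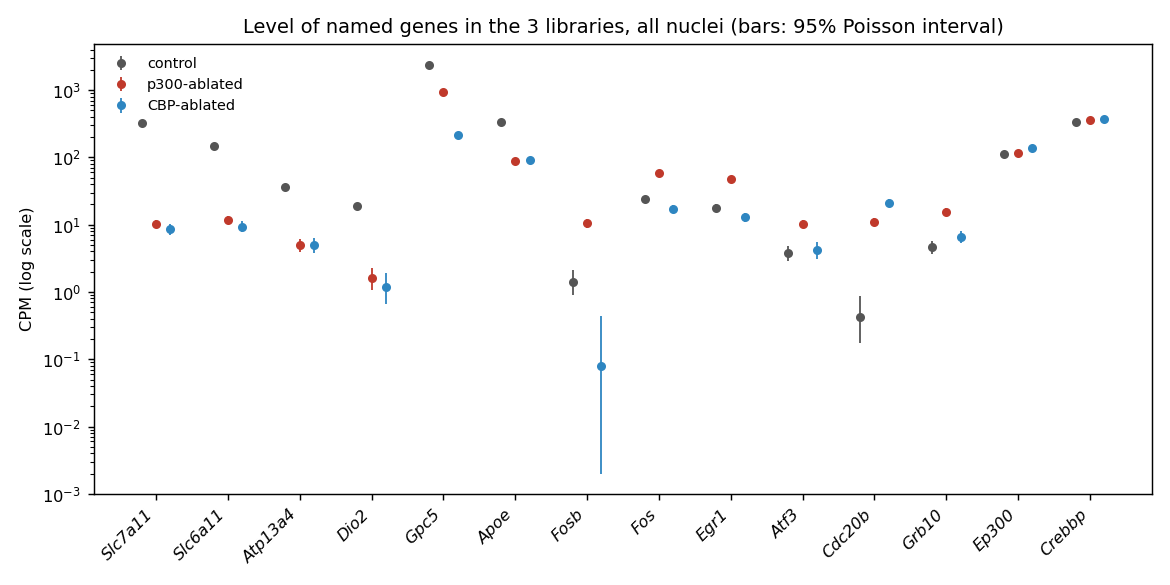
CPM (log scale) of 14 named genes over all nuclei in the control (grey), p300-ablated (red) and CBP-ablated (blue) libraries, with 95% Poisson intervals as bars. The astrocyte genes from Slc7a11 to Apoe are below control in both ablated libraries, and Fosb, Fos, Egr1 and Atf3 are highest in the p300-ablated library.

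Genes of astrocyte transport and metabolism made up the group with the lowest median. Astrocytes clear glutamate, GABA and glycine from the extracellular space, exchange cystine for glutamate and make glutamine. Of 15 tested members 0 were 2 times higher and 8 (53.3%) were 2 times lower, against 2.12% over all genes. The 8 include Slc7a11, Slc6a11, Atp13a4 and the proteoglycan gene Gpc5, the genes of the astrocyte rule. The list was chosen with earlier results of these data known, so its share is a description and no independent test. The median ratio was −1.05 against −0.03 over all genes. In the CBP-ablated library the median was −1.44.

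Slc7a11 (ENSMUSG00000027737, chromosome 3 from 49892526 to 50443614, minus strand), the exchanger that brings in cystine, had 5278 UMIs in 1412 control nuclei and 195 UMIs in 149 p300-ablated nuclei, or 324 and 10.3 CPM. The ratio was −4.97 (−5.18 to −4.76), and the CBP-ablated library had 8.63 CPM. The GABA transporter gene Slc6a11 had 147 and 11.6 CPM, a ratio of −3.67 (−3.87 to −3.47). Both genes stood far below control in both ablated libraries, as did Atp13a4, a transporting ATPase, with 36.1 and 4.93 CPM and a ratio of −2.87 (−3.21 to −2.56). The proteoglycan gene Gpc5 had 2382 CPM in control, 922 in the p300-ablated library and 213 in the CBP-ablated library, a ratio of −1.37 (−1.39 to −1.34). Glul, the gene of glutamine synthetase, had 111 and 44.3 CPM, a ratio of −1.33 (−1.45 to −1.21). Also past the limit were the glycine transporter gene Slc6a9 at −1.29 and Aldh1l1, a folate enzyme gene used as an astrocyte marker, at −1.05. The glutamate transporter genes Slc1a2 at −0.97 and Slc1a3 at −0.64 lay inside it, and the urea transporter gene Slc14a1 at 0.66 was the only tested member above 0.

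The sequences before the starts of Slc7a11 and Slc6a11 are shown because the astrocyte rule and the lowest ratios of the transport group rest on these genes. Each covers the 250 bases upstream of the RefSeq start in GRCm38.p6, 5′ to 3′ on the gene's strand. Capitals mark matches, on either strand, to TGACG, the core of the cAMP response element to which CREB binds, and to TGATGNAAN, the amino acid response element to which ATF4 binds.
Slc7a11, chr3:50443614-50443863, minus strand: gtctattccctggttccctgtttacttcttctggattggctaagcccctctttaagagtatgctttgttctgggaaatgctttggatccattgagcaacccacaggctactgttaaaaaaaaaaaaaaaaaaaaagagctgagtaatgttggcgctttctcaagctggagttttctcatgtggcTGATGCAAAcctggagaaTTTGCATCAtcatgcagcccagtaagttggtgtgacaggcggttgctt
Slc6a11, chr6:114130991-114131240, plus strand: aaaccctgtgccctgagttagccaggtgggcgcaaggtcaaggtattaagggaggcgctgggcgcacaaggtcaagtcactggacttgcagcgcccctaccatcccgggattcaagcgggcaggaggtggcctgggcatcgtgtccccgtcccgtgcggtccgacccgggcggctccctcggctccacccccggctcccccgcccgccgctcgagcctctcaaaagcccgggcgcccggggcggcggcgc
The Slc7a11 sequence held 2 matches to the amino acid response element, at 66 bases before the start on the gene's strand and at 48 bases on the other strand. The Slc6a11 sequence held none to either motif. Over the same length 3.44% of 32851 RefSeq promoters held the amino acid response element and 17.8% the core TGACG.

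Astrocyte genes of structure, secretion and reception were lower in part. Of 16 members 0 were 2 times higher and 5 (31.25%) were 2 times lower, against 2.12% over all genes, with a median of −0.58. Sparcl1, a secreted protein that promotes synapses, had 149 and 24.1 CPM, a ratio of −2.63 (−2.78 to −2.48). Apoe, the main lipid carrier of the brain, had 342 and 87.6 CPM, a ratio of −1.96 (−2.04 to −1.88). The sphingosine phosphate receptor gene S1pr1 was at −1.75, the growth factor receptor gene Fgfr3 at −1.07 and the nuclear receptor gene Rorb at −1.04. Genes of the astrocyte skeleton and water transport did not follow, as Gfap had 83.9 and 86.7 CPM and a ratio of 0.05 (−0.06 to 0.15), the water channel gene Aqp4 was at 0.13 (0.04 to 0.21) and the filament gene Vim at 0.48 (0.38 to 0.58).

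Many of the lower genes had much of their control level in astrocyte-like nuclei. They had a median of 51.6% of their control UMIs in the astrocyte-like cluster, against 24.0% over all tested genes and 8.01% over the genes 2 times higher. That cluster held 1274 control nuclei and 0 of either ablated library, and a cluster of 1 library may be that library and not a cell type. Genes that differ between the libraries took part in the clustering. Lower genes would thus tend to be rich in such a cluster by its making, so these shares describe the sums and test nothing. Further genes at the low end were Proc, the gene of anticoagulant protein C, with 16.2 and 0.424 CPM and a ratio of −5.26, and the mitochondrial carrier gene Slc25a34 with 17.2 and 0.583 CPM and a ratio of −4.88. Dio2, which activates thyroid hormone, had 18.6 and 1.59 CPM, a ratio of −3.55 (−4.14 to −3.01), and the matrix gene Svep1 22.4 and 2.01 CPM, a ratio of −3.47. In sums over nuclei, fewer nuclei of a type and less RNA in each nucleus cannot be told apart.

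Leaving out the astrocyte-rule nuclei removed part of the lower genes. The rule took out 899 nuclei, 18.4% (17.3 to 19.5), of the control library and 10 nuclei, 0.215% (0.103 to 0.395), of the p300-ablated library, a difference of −18.2 percentage points (−19.3 to −17.1). The rule counts UMIs of genes that were themselves lower in the p300-ablated library. Few of its nuclei could therefore meet the rule whatever their type, and the difference does not measure a number of astrocytes. The rule left 444 nuclei of the astrocyte-like cluster in control, 11.1% of those kept. It kept 81.7% of control UMIs and 99.7% of p300-ablated UMIs. CPM uses these totals, so a gene absent from the rule nuclei has a lower ratio in the repeat. This shift also enters the counts of the repeat. In this view 50 genes (0.417%) were 2 times higher and 148 (1.23%) lower, together 1.65%. Of the 260 genes lower over all nuclei 115 were lower in both views, which is 44.2% of the 260 and 77.7% of the 148. Of the 85 higher genes 45 were higher in both, 52.9% of the 85 and 90% of the 50.

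Astrocyte genes had smaller ratios in the repeat. Of the transport list 3 members stayed 2 times lower, Slc7a11 at −3.02 (−3.26 to −2.80), Slc6a11 at −2.04 (−2.28 to −1.80) and Atp13a4 at −1.39 (−1.78 to −1.01), and the median was −0.57. The rule itself uses these 3 genes and takes out the nuclei richest in them. Slc7a11 was at −2.45 after 10% of the UMIs had been subtracted as free RNA. Of the structural list Sparcl1 at −1.88, Apoe at −1.43 and S1pr1 at −1.09 (−1.45 to −0.72) stayed past the limit. Within classes of nuclei, described below, S1pr1 was 2 times lower in 0 of 2. At the low end Proc was at −4.35 and Slc25a34 at −3.83.

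**Figure D3:**
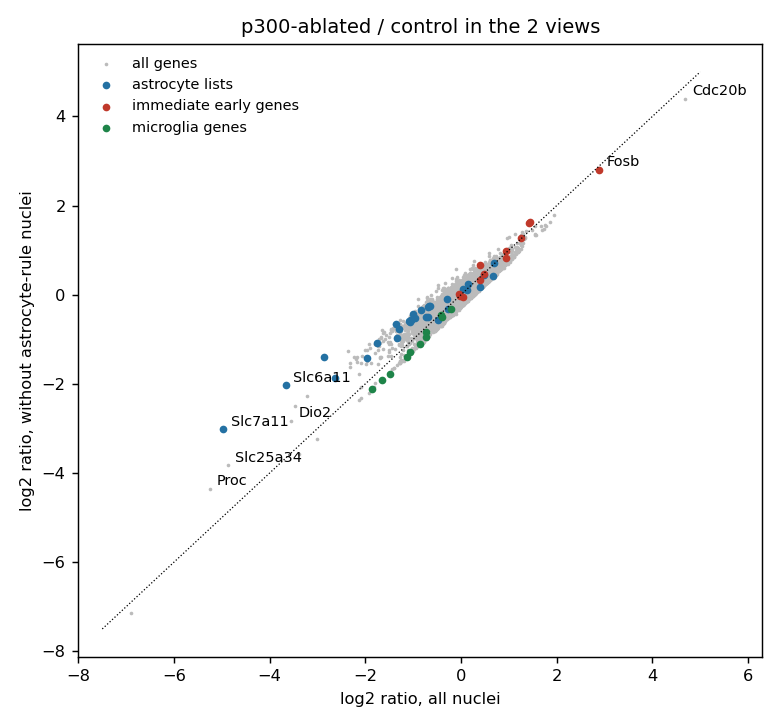
Log2 ratio without astrocyte-rule nuclei (vertical) against log2 ratio over all nuclei (horizontal), 1 point a gene, with both astrocyte lists in blue, immediate early genes in red and microglia genes in green. The dotted line marks equal values, and Slc7a11 lies above it at −3.02 against −4.97 and the microglia gene Csf1r below it at −2.12 against −1.86.

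To see which differences were also present within kinds of nuclei, the 3 libraries were merged and split into 14 clusters, which were joined into classes named by marker genes. A class needed 50 nuclei in both libraries and a gene 20 UMIs in the class, which left 12 classes. NPC/OPC-like nuclei are named by oligodendrocyte precursor genes such as Pdgfra and Cspg4, and RGC/PSC-like nuclei resemble radial glia. The name NPC/OPC, for neuronal progenitors and oligodendrocyte precursors, follows the paper. The cluster-5-like nuclei are named by Kcnj6, Nell2 and Cacng4, and clusters without a name keep a number. Genes that differ between the libraries took part in the clustering, so class sizes are given only as the nuclei compared. Of 8837 genes measured in at least 5 classes, 15 were 2 times lower in at least 5 of them and 14 were 2 times higher. Of the genes with 100 UMIs in a class, the share 2 times higher and the share 2 times lower were 0.216% and 0.229% in NPC/OPC-like nuclei, 0.318% and 0.477% in RGC/PSC-like nuclei and 1.13% and 0.323% in glial progenitor-like nuclei. They were 1.44% and 0.479% in oligodendrocyte-like nuclei, 0.327% and 0.327% in committed oligodendrocyte precursor-like nuclei and 0.188% and 0.0805% in proliferating-like nuclei. In the other classes they were 0.444% and 0.592% in cluster 6, 0.41% and 0.217% in cluster-5-like nuclei, 1.09% and 1.36% in neuron-like nuclei, 3.94% and 1.5% in microglia-like nuclei, 1.63% and 0.927% in cluster 12 and 6.07% and 1.73% in cluster 13. Both shares were highest in cluster 13 and next in microglia-like nuclei, where the fewest genes reached 100 UMIs. By the median over classes 126 of 12198 genes (1.03%) were 2 times higher and 91 (0.746%) lower. Of these 35 and 42 were past the limit over all nuclei. The balance towards lower genes in the whole-library sums was thus not seen in this median, in which the astrocyte-like cluster has no part. In sums without that cluster 42 of 11883 genes were higher and 114 lower.

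Slc7a11 was 2 times lower in 12 of 12 classes, with the smallest difference in oligodendrocyte-like nuclei (16 and 8 UMIs) and the widest in cluster 12 (126 and 8 UMIs, a ratio of −4.35). In cluster 12 the astrocyte rule, which uses Slc7a11 itself, was met by 23 of 94 control nuclei and 1 of 106 p300-ablated nuclei, and without them Slc7a11 had 45 and 8 UMIs, a ratio of −3.29. Slc6a11 was lower in 5 of 5 classes, Sparcl1 in 7 of 10 and Apoe in 9 of 12. Other astrocyte genes that were 2 times lower over all nuclei passed the limit in a smaller part of their classes. Glul did so in 3 of 9, Atp13a4 in 1 of 3, Slc6a9 in 1 of 7 and Rorb in 1 of 12. Aldh1l1 and Fgfr3 did so in 0 of 4 each. Of the glutathione genes described below, Gsta4 was lower in 1 of 2, Slc3a2 in 1 of 9 and Hmox1 in 0 of 6. For Apoe the smallest difference was in glial progenitor-like nuclei, with 490 and 642 UMIs and a ratio of −0.17 (−0.34 to 0.00). Fth1, the ferritin heavy chain that stores iron, had 66.9 and 21.1 CPM over all nuclei, a ratio of −1.67, and was lower in 8 of 12 classes. Egfr, the receptor of the growth factor on which stem cells are grown, had 373 and 113 CPM, a ratio of −1.73 (−1.80 to −1.65), and was lower in 6 of 11 classes. Gpc5 was lower in 6 of 12 classes, but in NPC/OPC-like nuclei it had 2560 and 5686 UMIs, a ratio of 0.05 (−0.02 to 0.12).

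Free RNA in the droplets can add UMIs to every class, and its true share was not measured. At 10% of the whole library's level, free Slc7a11 RNA would amount to 32.4 CPM in control nuclei, which was above the measured control level in 3 classes, the NPC/OPC-like, oligodendrocyte-like and proliferating-like nuclei, so that no difference can be read from these at that share. With this share subtracted from each library, an alternative chosen after seeing the data, Slc7a11 was 2 times lower in 7 of 9 classes with more than 3 control UMIs left, Slc6a11 in 3 of 4, Apoe in 7 of 12, Fth1 in 8 of 12, Egfr in 3 of 9, Gpc5 in 5 of 11 and Sparcl1 in 1 of 8. With astrocyte-rule nuclei left out of each class instead, Slc7a11 was lower in 11 of 11 classes, Slc6a11 in 3 of 4, Sparcl1 in 6 of 10, Apoe in 9 of 12, Fth1 in 7 of 11, Egfr in 4 of 11 and Gpc5 in 3 of 12.

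**Figure D4:**
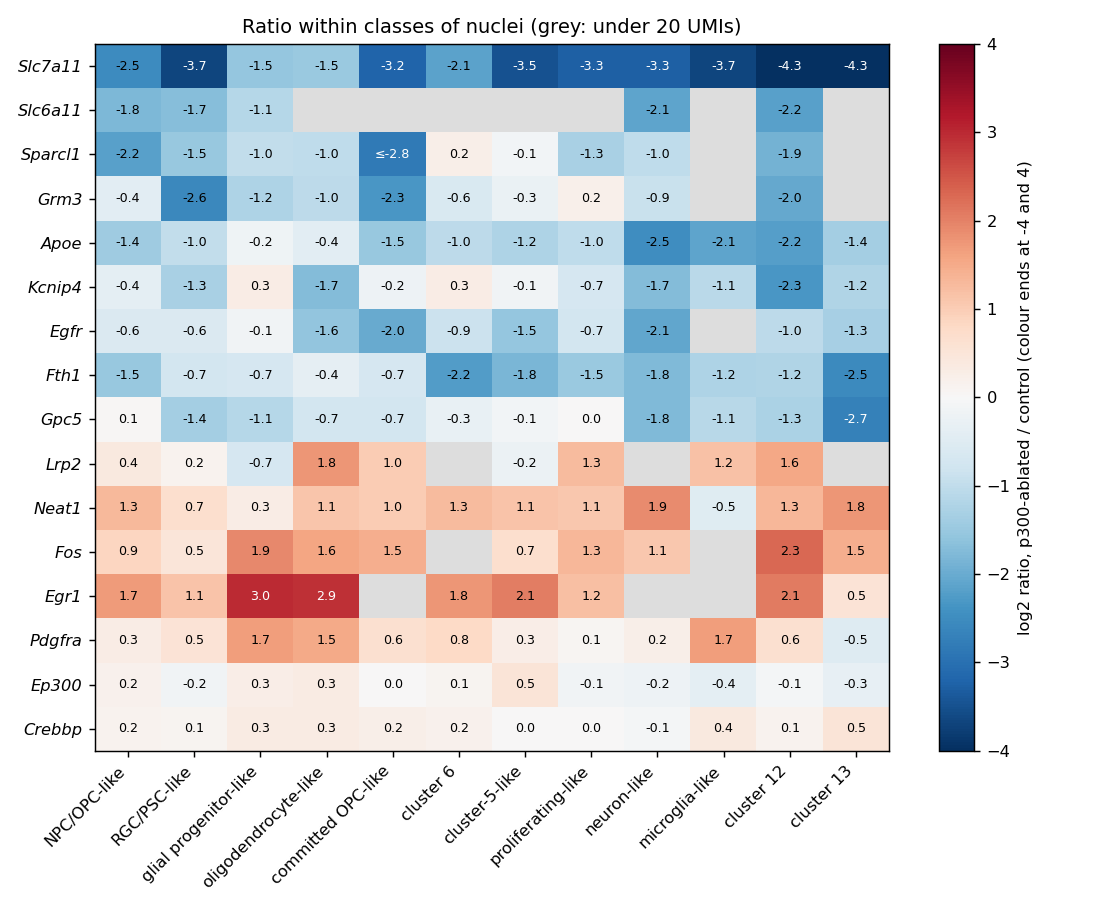
Log2 ratio, p300-ablated over control, of 16 named genes (rows) within 12 classes of nuclei (columns), blue for lower and red for higher, grey where a class held under 20 UMIs of the gene, and ≤ where the p300-ablated nuclei held 0 UMIs and a floor of 3 UMIs gave a bound. Slc7a11 is past 2 times lower in all 12 columns and Egr1 is above 0 in the 9 measured, while Crebbp stays within 1 of 0 throughout.

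Immediate early genes lay on the higher side. Most encode transcription factors, and they are known to be induced within minutes by growth factors, activity or stress. CREB and SRF, which drive many of them, recruit p300 and CBP. Of 12 tested members 0 were 2 times lower and 4 (33.3%) were 2 times higher, against 0.694% over all genes, with a median ratio of 0.71. Without astrocyte-rule nuclei 4 were higher, against 0.417% over all genes, with a median of 0.75. The CBP-ablated library had a median of −0.40 for these genes.

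Fosb (ENSMUSG00000003545, chromosome 7 from 19302696 to 19310051, minus strand), a partner of Jun proteins in AP-1, had 23 UMIs in control, 197 in the p300-ablated library and 1 in the CBP-ablated library, a ratio of 2.89 (2.26 to 3.58). Fos, of the same family, had 393, 1089 and 217 UMIs, a ratio of 1.26 (1.09 to 1.43). Egr1, a zinc finger factor, had 291, 910 and 166 UMIs, a ratio of 1.43 (1.24 to 1.63). The p300-ablated library was highest of the 3 for each of these, and also for the stress-induced factor gene Atf3, with 62, 193 and 53 UMIs and a ratio of 1.43 (1.01 to 1.86). Dusp1, which encodes a phosphatase of MAP kinases, was at 0.94, Junb at 0.93 and Jun at 0.48, inside the limit, and Jund at 0.04, Nr4a2 at −0.02 and Fosl2 at −0.03 lay near 0.

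Fos and Egr1 were higher in many classes, whereas Fosb and Atf3 came mainly from glial progenitor-like nuclei, which numbered 492 in the control library and 629 in the p300-ablated library. Fos was 2 times higher in 7 of 10 classes and Egr1 in 8 of 9, and neither was below 0 in any class measured. In glial progenitor-like nuclei Egr1 had 12 and 139 UMIs, a ratio of 2.98 (2.13 to 3.96), and Fos 79 and 440, a ratio of 1.92 (1.57 to 2.28). These nuclei held 143 of the 197 Fosb UMIs (72.6%) and 114 of the 193 Atf3 UMIs (59.1%) of the p300-ablated library, and 4 and 7 in control. The Fosb UMIs were spread over 90 nuclei, and the 5 nuclei with most held 15.7%.

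The sequences before the starts of 3 of the 4 immediate early genes that were 2 times higher are shown with the same marks, since these genes differed together. The sequence of Egr1, the other of the 4, is not shown.
Fos, chr12:85473640-85473889, plus strand: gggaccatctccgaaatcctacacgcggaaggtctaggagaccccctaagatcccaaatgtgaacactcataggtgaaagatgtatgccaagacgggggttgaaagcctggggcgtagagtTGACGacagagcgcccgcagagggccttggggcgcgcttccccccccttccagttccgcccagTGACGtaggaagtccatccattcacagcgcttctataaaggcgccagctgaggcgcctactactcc
Fosb, chr7:19310046-19310295, minus strand: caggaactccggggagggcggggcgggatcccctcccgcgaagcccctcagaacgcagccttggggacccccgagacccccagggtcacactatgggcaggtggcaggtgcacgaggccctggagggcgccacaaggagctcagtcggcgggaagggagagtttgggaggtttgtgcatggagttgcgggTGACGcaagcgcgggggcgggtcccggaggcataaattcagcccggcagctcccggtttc
Atf3, chr1:191183334-191183583, minus strand: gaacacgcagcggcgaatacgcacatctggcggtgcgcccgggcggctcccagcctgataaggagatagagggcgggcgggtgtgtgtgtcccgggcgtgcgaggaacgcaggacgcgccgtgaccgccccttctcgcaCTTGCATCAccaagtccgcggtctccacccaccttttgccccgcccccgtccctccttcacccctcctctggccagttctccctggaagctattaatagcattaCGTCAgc
Each held the core TGACG: Fos at 129 and 66 bases before the start, Fosb at 60 bases and Atf3 at 7 bases on the other strand. The Atf3 sequence also held 1 match to the amino acid response element, at 111 bases on the other strand. The full element TGACGTCA, which contains the core, was in none of the 3. Of the 17 immediate early genes on the list 13 were found among the RefSeq promoters. The list also holds genes with too few UMIs to be tested, and CREB is known to drive many of its members. Of the 13 genes 10 (76.9%) had the core in a promoter, against 30.4% of the 9471 tested genes found there. The share was 23.5% of 68 genes 2 times higher and 13.7% of 183 genes 2 times lower. These are matches of letters and do not show binding.

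**Figure D5:**
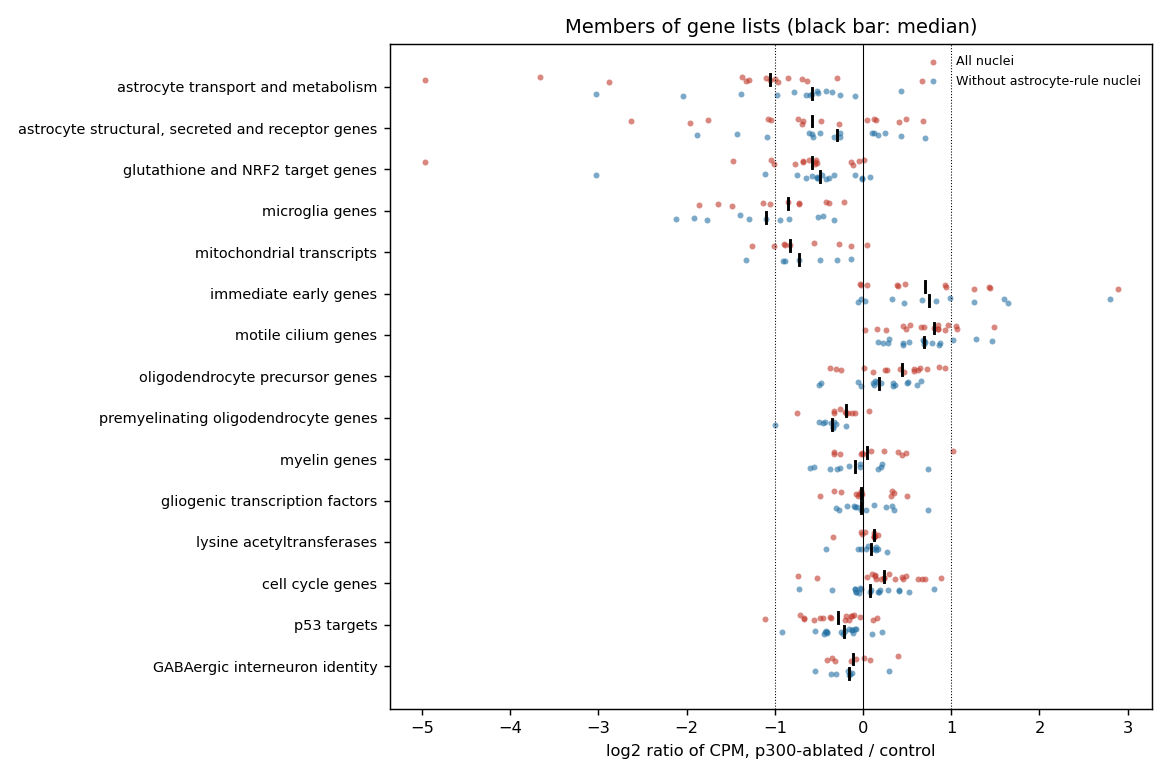
Log2 ratio, p300-ablated over control, of the tested members of 15 gene lists over all nuclei (red) and without astrocyte-rule nuclei (blue), 1 point a gene, with the median as a black bar and dotted lines at 2 times. The astrocyte transport and microglia lists have medians of −1.05 and −0.86 over all nuclei, the immediate early and motile cilium lists 0.71 and 0.80, and the acetyltransferases 0.12.

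The highest ratio belonged to Cdc20b (ENSMUSG00000078926, chromosome 13 from 113035111 to 113091195, plus strand), a gene active in cells that form many cilia. Cdc20b had 7 UMIs in control, 208 in the p300-ablated library and 268 in the CBP-ablated library, with ratios of 4.68 (3.61 to 6.01) and 5.61. Glial progenitor-like nuclei held 183 of the 208 UMIs (88.0%). Few nuclei carried them: 43 nuclei had a UMI, and the 5 with most held 149 UMIs (71.6%).

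Genes of the motile cilium, the beating organelle of ependymal cells, lay above 0 as a group. Of 17 tested members 0 were 2 times lower and 3 (17.6%) were 2 times higher, against 0.694% over all genes. All 17 were above 0, and the median was 0.80, with 0.63 in the CBP-ablated library. The dynein gene Dnah12 had 53 and 172 UMIs, a ratio of 1.49 (1.04 to 1.96), with 39.5% of the p300-ablated UMIs in 5 nuclei. Dnah6, another dynein gene, was at 1.07 and Cfap44, of the cilium axis, at 1.05 (0.87 to 1.24). Foxj1, the factor that switches on motile cilia, had 55 and 89 UMIs, a ratio of 0.48. Hydin, of the central pair of microtubules, was at 0.96 over all nuclei, and in glial progenitor-like nuclei it had 6 and 57 UMIs, a ratio of 2.69 (1.48 to 4.20). Wdr63, a dynein regulator outside the list, had 21 and 93 UMIs, a ratio of 1.94 (1.24 to 2.69), of which glial progenitor-like nuclei held 78.5% in the p300-ablated library.

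Other genes at the high end are known for various roles. The actin-binding gene Cnn2 had 64 and 268 UMIs, a ratio of 1.86 (1.46 to 2.27), and Flnc, which crosslinks actin, 65 and 255, a ratio of 1.76 (1.36 to 2.18). In RGC/PSC-like nuclei both were past the limit, at 1.34 (0.85 to 1.86) and 1.17 (0.64 to 1.73). Grb10, an imprinted adaptor gene that restrains insulin signalling, had 4.60 CPM in control, 15.7 in the p300-ablated library and 6.59 in the CBP-ablated library, a ratio of 1.77 (1.40 to 2.16), and was higher in 3 of 3 classes. The other imprinted genes past the limit, of 14 tested, were the noncoding Mirg at 1.10 and Mest at −1.12. In the repeat 1 of the 14 was 2 times higher and 0 were lower, with Mest at −0.88. Over all genes 0.694% were 2 times higher and 2.12% lower, and in the repeat 0.417% and 1.23%. With so few members past the limit, the imprinted counts and the matrix counts that follow are not read as group results. Of 18 tested collagens, laminins and brain matrix genes the fibronectin gene Fn1 was higher at 1.17 and Col9a1 lower, and the median was 0.14. Outside that list Fmod, Ogn and Emid1, which encode matrix proteins, were at 1.54, 1.55 and 1.57, and the membrane protein gene Emp1 was at 1.70. The homeobox gene Lmx1a had 172 and 582 UMIs, a ratio of 1.55 (1.30 to 1.80), and the transcription factor gene Npas1 was at 1.68 (1.10 to 2.30). Hapln2, a matrix link protein at nodes of Ranvier, had 40 and 153 UMIs, a ratio of 1.72 (1.21 to 2.27), and 91.5% of the p300-ablated UMIs lay in oligodendrocyte-like nuclei.

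Sumf2 and Neat1 had modest ratios over all nuclei and were higher in most classes. Sumf2, which acts on the enzyme that activates sulfatases, had 142 and 292 CPM, a ratio of 1.04 (0.97 to 1.11), and was 2 times higher in 10 of 12 classes. Neat1, the RNA that builds nuclear paraspeckles, had 330.0 and 567 CPM, a ratio of 0.78 (0.73 to 0.83), and was higher in 9 of 12 classes. Ndst3, an enzyme gene of heparan sulfate, had 68.5 CPM in control, 139 in the p300-ablated library and 28.6 in the CBP-ablated library, a ratio of 1.02 (0.92 to 1.12), and was higher in 5 of 10 classes, whereas it was 2 times lower in glial progenitor-like nuclei, with 237 and 174 UMIs or 157 and 78.4 CPM.

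Oligodendrocyte precursor genes lay above 0 without passing 2 times. They mark the dividing cells that later form myelin. The median over 16 members was 0.44, 13 were above 0, and in the repeat the median was 0.18. The smaller control total of the repeat enters this second median. Over all genes 97.2% lay within 1 of 0. The receptor gene Pdgfra had 236 and 448 CPM, a ratio of 0.93 (0.87 to 0.98), and the proteoglycan gene Cspg4 67.4 and 122 CPM, a ratio of 0.86 (0.75 to 0.96). NPC/OPC-like nuclei numbered 843 in the control library and 1570 in the p300-ablated library, and within them Pdgfra was at 0.31 (0.23 to 0.38) and Cspg4 at 0.34 (0.21 to 0.48).

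Myelin genes were near 0. Of 12 members 1 (8.33%) was 2 times higher, the claudin gene Cldn14 at 1.02 (0.85 to 1.18), against 0.694% over all genes. There were 0 lower, and the median was 0.05. In the repeat 0 were past the limit. Mbp, of compact myelin, had 347 CPM in control, 410.3 in the p300-ablated library and 1651 in the CBP-ablated library, a ratio of 0.24 (0.19 to 0.29) against 2.25 for CBP. The myelin surface gene Mog was at −0.03 (−0.16 to 0.10) and the myelin transcription factor gene Myrf at −0.33 (−0.56 to −0.10). Premyelinating genes had a median of −0.20 with none past the limit, and in the CBP-ablated library the medians of both lists were 2.07 and 0.89.

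Glutathione genes and NRF2 targets lay below 0. Cystine brought in by Slc7a11 and its partner Slc3a2 is used to make glutathione, and NRF2 (Nfe2l2) drives the genes of this defence. Of 16 tested members 0 were 2 times higher and 4 (25%) were 2 times lower, against 2.12% over all genes, with a median of −0.58. Besides Slc7a11 these were the glutathione transferase gene Gsta4 at −1.47, the haem oxygenase gene Hmox1 at −1.05 (−1.30 to −0.80) and Slc3a2 at −1.01 (−1.18 to −0.84). The synthesis genes Gclc at −0.54 and Gclm at −0.55, and Nfe2l2 at −0.62, lay inside the limit. In the repeat the median was −0.49, with Slc7a11 and Gsta4, at −1.11, past it. In the CBP-ablated library, over all nuclei, the median was −0.64 and 4 members were 2 times lower, against the same control.

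Microglia genes were lower over all nuclei. Their ratios were lower again in the repeat, where the control total was smaller while their UMIs changed little. Of 11 tested members 5 (45.5%) were 2 times lower over all nuclei, against 2.12% over all genes, with a median of −0.86. In the repeat 6 (54.5%) were 2 times lower, against 1.23% over all genes, with a median of −1.10. In the CBP-ablated library, over all nuclei, the median was −0.85 and 2 members were 2 times lower, against the same control. Csf1r, the receptor on which microglia depend, had 107 and 34 UMIs, a ratio of −1.86 (−2.47 to −1.30), and the phosphatase gene Inpp5d 375 and 139, a ratio of −1.64 (−1.93 to −1.36). In the repeat Csf1r had 105 and 34 UMIs and Inpp5d 371 and 139. The list summed to 218 CPM in the control library against 119 in the p300-ablated library, with Itgam at 0 UMIs in both, and the microglia-like class held 185 and 54 nuclei. Within that class Csf1r was at −0.90 (−1.60 to −0.25), Inpp5d at −0.54 (−0.85 to −0.23) and the leukocyte gene Ptprc at 0.22 (−0.10 to 0.54). The scavenger receptor gene Stab1, at −2.10 over all nuclei, was at −1.10 (−1.53 to −0.70) within the class.

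Mitochondrial transcripts, which come from outside the nucleus and move with the purity of nuclei, had a median of −0.83 over 9 members, with mt-Co2 at −1.26 (−1.62 to −0.91). Of 18 p53 targets the death receptor gene Tnfrsf10b was lower at −1.11 (−1.67 to −0.56), but at −0.92 in the repeat, and the median was −0.28. Of 14 clock genes Npas2 was lower, with 73.4 and 24.2 CPM and a ratio of −1.60 (−1.76 to −1.45). In the repeat Npas2 was at −0.83, and it was 2 times lower in 0 of 5 classes. Over all genes 0.694% were 2 times higher and 2.12% lower. Cell cycle genes had none of 19 past the limit and a median of 0.24, from −0.74 for the cyclin gene Ccnd2 to 0.88 for the spindle checkpoint gene Bub1b.

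Transcription factors of gliogenesis were inside the limit. Of 13 tested members none passed it, from −0.49 (−0.66 to −0.31) for Sox9 to 0.50 (0.04 to 0.96) for the Notch target Hes1, with a median of −0.02, and Nfia, which starts gliogenesis, was at −0.01 (−0.04 to 0.01). Of 19 genes of the LIF and BMP pathways, which promote astrocyte formation, the receptor gene Bmpr1b was lower at −1.10 (−1.18 to −1.03) and the ligand gene Bmp6 higher at 1.07 (0.97 to 1.18). In the repeat 0 of the 19 were past the limit. Bmpr1b was at −0.66 there, and it was 2 times lower in 1 of 10 classes. Over all genes 0.694% were 2 times higher and 2.12% lower. Of 6 neuronal lists 4 had no member past the limit: the median was −0.11 over 8 genes of GABAergic interneurons, 0.21 over 16 genes of neuronal differentiation, 0.22 over 18 genes of transmitter release and 0.25 over 11 AMPA and kainate receptor subunits. Of 11 NMDA and metabotropic glutamate receptor genes Grm3, a metabotropic receptor, was lower, with 1555 and 391 UMIs and a ratio of −2.20 (−2.37 to −2.04), and the median was −0.15. Of 9 GABA-A receptor subunits Gabra4 was lower at −1.04 (−1.32 to −0.77), but at −0.59 in the repeat, and the median was 0.22. Of 14 vascular and mesenchymal genes 5 had enough UMIs, and the smooth muscle actin gene Acta2 was higher, with 28 and 82 UMIs and a ratio of 1.34 (0.70 to 2.01).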

How the data were processed

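Nuclear RNA of 3 libraries (control, p300-ablated, CBP-ablated; 1 pool each) was captured with 10x Genomics 3' v3 chemistry. The deposited values are raw UMI counts per gene and nucleus. Per the labels, the authors aligned reads to mm10 with Cell Ranger 3.1, and their processing notes also name FastQC 0.11.9 and Seurat 2.3.4. All deposited nuclei were kept and doublets were left in, except in an alternative that removed Scrublet calls. Groups came from the genotype labels. UMIs were summed per library and expressed as CPM. Ratios have conditional binomial intervals, CPM Poisson intervals and shares exact (Clopper-Pearson) intervals, with a Newcombe interval for the difference of 2 shares, all at 95% and for counting error only; a gene at 0 was set to a floor of 3 UMIs per library. UMIs totalled 12748336 to 18876682 a library. Clusters were made with Seurat 5.3.0 in R 4.3.3 (1587 variable genes, 20 components, 30 neighbours, resolution 0.6), and other steps with Python 3.11.15, SciPy 1.17.1 and scanpy 1.11.5. Named genes were the 15 largest and 15 smallest ratios, the 10 largest and 10 smallest in the repeat, list members past 2 times or at a list's extremes, genes past 2 times in most classes, class markers and the genes of the rule; list members named inside the limit were chosen after their values were seen, and results on some genes the rule names are not reported here. The comparison, its rule and the 38 gene lists were chosen with earlier results of these data known. The scripts were tested on simulated data. Alternatives covered scaling (edgeR 4.0.16 and DESeq2 1.42.0 factors only), UMI minimum, fold, thinning, doublets, free RNA, the rule and the clustering; those on free RNA and rule nuclei within classes were added after seeing the data. Promoter sequences and motif shares come from RefSeq, and the motifs were chosen after the ratios were seen.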

Additional observations from a re-analysis of the deposited data

Results flagged for a closer look

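The features of the Cre virus were looked up in the CBP-ablated library, which the p300 comparison does not use. There LVCREmCherry had 21 UMIs and LVCREmCherryB 8 UMIs, against 0 of each in the control library, and this signal above control is the reason they are named.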

How the results depend on the processing

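With 1 library per condition, no replicate could be left out and no alternative bears on the spread between cultures. No paired analysis was possible because each condition has 1 library. Genes with few UMIs have the widest intervals. The 85 genes higher over all nuclei became 876 at a minimum of 1 UMI in each library, 15 at 1000 UMIs and 535 at a fold of 1.5. The 260 lower genes became 1270, 41 and 952 in the same order, 169 with nuclei thinned to 1500 UMIs and 91 by the median over classes. In the repeat the 50 higher genes became 804, 4 and 319, 27 when thinned and 110 by the class median, and the 148 lower genes 1025, 16 and 606, 65 when thinned and 85 by the class median. Entries of the gene lists past 2 times numbered 52 over all nuclei, where a gene on 2 lists counts in each. They became 25 at 1000 UMIs, 135 at a fold of 1.5 and 31 by the class median. The 32 entries of the repeat became 52 at 1 UMI, 11 at 1000 UMIs, 96 at a fold of 1.5 and 21 when thinned. A higher UMI minimum also leaves fewer entries tested. Over all genes 2.82% were past 2 times over all nuclei and 1.65% in the repeat. Over all nuclei the shares of all genes higher and lower were 0.290% and 0.792% at 1000 UMIs and 4.37% and 7.77% at a fold of 1.5. The Ep300 ratio of the repeat, 0.04, was −0.072 by the class median. The difference of −18.2 points in astrocyte-rule nuclei was −22.7 at 2 and 3 UMIs, −11.6 at 5 and 8 UMIs and −26.1 for the astrocyte-like cluster. The counts at other minimums follow from the genes let in, and those at a fold of 1.5 from the limit itself. Thinning left 9668 genes tested over all nuclei, with 0.662% higher and 1.75% lower. In the repeat it left 9303, with 0.290% higher and 0.699% lower. For thinning and the class median the cause was not tested. Ptprc reversed to 0.22 over all nuclei and 0.20 in the repeat by the class median, which for this gene is the microglia-like class alone. Over all nuclei, TMM factors gave 100 higher and 241 lower genes, DESeq2 size factors 112 and 221, and totals without the 20 genes of most UMIs 64 and 295. Genes past 2 times in at least 5 classes, 14 higher and 15 lower, were 14 and 23 at a resolution of 1.2 and 10 and 13 with a second random seed. Subtracting free RNA by each library's own profile cannot alter ratios over all nuclei.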
